A study of Mus musculus with 12 samples.

Results

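The AP-1 and immediate-early transcription factors examined here were Fos, Fosb, Fosl1, Fosl2, Jun, Junb, Jund, Atf3 and Egr1. They were chosen by gene symbol, each matched 1 Ensembl ID, and they made up 9 of the 57010 gene IDs in the count tables. All 9 passed the filter on low counts, which left 14253 genes for testing. RNA sequencing had been carried out on 12 libraries of primary mouse chondrocytes, the cells that make cartilage matrix. In 4 libraries the cells are labelled Control, in 4 WT for a wild-type plasmid, and in 4 SIRT5F101L mutant for a plasmid carrying the F101L form of SIRT5, an enzyme of mitochondria that strips malonyl and similar acidic acyl groups off lysine residues. Every library carries the genotype label Wild type. What the Control cells received, the promoter and species of the plasmid insert, and the age, sex and strain of the mice are not given in the labels, and the WT plasmid was taken to carry unmutated SIRT5. The comparisons ask how chondrocyte transcription differs with wild-type and with mutant SIRT5. Because the treatment of the Control cells is not given, SIRT5 and plasmid delivery cannot be told apart in a difference from Control.

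AP-1 is a dimer of leucine zipper proteins that binds short palindromic DNA sites. JUN proteins (JUN, JUNB, JUND) can pair with each other, whereas FOS proteins (FOS, FOSB, FRA1 from Fosl1, FRA2 from Fosl2) need a JUN or ATF partner. FRA1 and FRA2 lack the strong activation domain of FOS, and ATF3 is a partner of JUN proteins that is induced by stress. Fos and Egr1 are classical immediate-early genes, transcribed within minutes of a signal through serum response factor and MAP kinases, while Fosl1 is a later AP-1 target. In cartilage, AP-1 is best known for driving matrix metalloproteinases and inflammatory mediators.

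The libraries held 15095357 to 24242139 counts, and 1 count equalled 0.0413 to 0.0662 CPM (counts scaled to library size) before TMM scaling. Sirt5 itself had 11, 15, 9 and 16 counts in the Control libraries, 9, 9, 8 and 1 in the WT libraries, and 9, 19, 15 and 10 in the SIRT5F101L libraries. A higher Sirt5 level was found in neither plasmid group. Its log2 difference from Control was -0.86 ± 0.49 (SE) in WT (edgeR adjusted p = 0.143) and 0.03 ± 0.45 in SIRT5F101L (adjusted p = 0.954). The 95% confidence interval of the fold over Control was 0.27 to 1.12 in WT and 0.534 to 1.96 in SIRT5F101L. These counts are of the mouse gene, and expression of the insert, whose species is not given, was not tested. Without WT replicate 4, the library with 1 count, the WT difference was -0.48 (adjusted p = 0.379), and it ran from -1.1 to -0.48 with each library left out. Markers of chondrocytes were present throughout, with none of 13 at 0, and 11 of the 13 were lower in each plasmid group than in Control. Their summed level was 9329 to 11694 CPM in Control, 2852 to 2966 CPM in WT and 2321 to 2566 CPM in SIRT5F101L. The others were Hapln1, higher in both (82.1 ± 1.76 CPM in Control, 97.7 ± 4.43 CPM in WT, 93 ± 10.3 CPM in SIRT5F101L), and Acan, higher in WT (133 ± 16, 184 ± 6 and 143 ± 8.07 CPM). The 6 fibroblast markers summed to 17259 to 20449 CPM in Control, 6119 to 6935 CPM in WT and 5969 to 6916 CPM in SIRT5F101L, sums made up mostly of Col1a1 and Col3a1. In each plasmid group 4 of the 6 were lower and 2 higher, namely Cd34 (7.1 ± 1.78 CPM in Control, 57.3 ± 3.8 CPM in WT, 59.5 ± 0.651 CPM in SIRT5F101L) and Pdgfra (200 ± 10.8, 262 ± 13 and 306 ± 16.4 CPM). The 9 macrophage and leukocyte markers summed to 173 to 209, 131 to 151 and 141 to 179 CPM. Of the 8 tested, 7 were lower in each plasmid group, with a list median of -1.16 in WT and -1.22 in SIRT5F101L on the log2 scale. Cd14 was higher, with 12.4 ± 1.02 CPM in Control, 51.2 ± 2.96 CPM in WT and 59.7 ± 8.84 CPM in SIRT5F101L, and Itgam was listed at 0 in every library. These opposing markers are named because their values differ from the sums of their lists. The 4 endothelial markers summed to at most 4.52 CPM in any library, and the 4 osteoblast markers to 17 to 23.8 CPM in Control and at most 5.17 CPM in the plasmid groups. That sum was mostly Ibsp in Control (14.7 CPM, against 0.284 CPM in WT and 0.146 CPM in SIRT5F101L), while Alpl measured 2.85, 3.02 and 3.21 CPM and passed neither test. The part of these shifts in the results below was not tested, and in bulk RNA fewer cells of a type and less RNA per cell cannot be told apart. SIRT5F101L replicate 1 stood apart: without it, 2212 genes in place of 6 passed the test between the plasmid groups, so results that rest on it are given both ways.

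Promoter sequences are shown for 4 members because they moved in different ways between the groups: Fos was lower in both plasmid groups, Fosl2 and Atf3 were higher, and Jun passed no test. Each is the 250 bases before the RefSeq start of the gene (assembly GRCm38.p6), 5′ to 3′ on the strand of the gene. Capitals mark matches to the motifs named after the sequences.
Fos, chr12:85473640-85473889, plus strand: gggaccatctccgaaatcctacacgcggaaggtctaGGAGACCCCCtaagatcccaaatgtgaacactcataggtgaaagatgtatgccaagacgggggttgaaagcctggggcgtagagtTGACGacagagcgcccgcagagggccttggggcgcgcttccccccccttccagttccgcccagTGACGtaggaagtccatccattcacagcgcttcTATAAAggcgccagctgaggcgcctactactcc
Fosl2, chr5:32136222-32136471, plus strand: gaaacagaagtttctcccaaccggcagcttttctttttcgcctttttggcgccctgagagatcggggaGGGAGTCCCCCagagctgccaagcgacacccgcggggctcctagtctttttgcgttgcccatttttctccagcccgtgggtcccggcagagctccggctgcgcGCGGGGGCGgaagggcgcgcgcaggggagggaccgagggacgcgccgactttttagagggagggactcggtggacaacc
Atf3, chr1:191183334-191183583, minus strand: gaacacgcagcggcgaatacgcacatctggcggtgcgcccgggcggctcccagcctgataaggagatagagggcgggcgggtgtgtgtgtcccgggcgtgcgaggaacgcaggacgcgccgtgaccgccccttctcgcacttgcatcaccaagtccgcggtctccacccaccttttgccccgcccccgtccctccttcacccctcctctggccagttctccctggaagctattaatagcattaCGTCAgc
Jun, chr4:95052223-95052472, minus strand: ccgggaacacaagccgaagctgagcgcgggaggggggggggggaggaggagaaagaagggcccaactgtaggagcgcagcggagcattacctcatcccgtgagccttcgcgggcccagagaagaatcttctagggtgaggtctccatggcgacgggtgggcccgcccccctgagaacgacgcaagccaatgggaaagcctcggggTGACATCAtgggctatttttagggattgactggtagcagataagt

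RefSeq promoter sequences were matched for 7 of the 9 members, all but Fosl1 and Egr1. Their starts can differ from those of the gene models used for lengths (GENCODE M21). The Jund window ends at 70697738, before its gene model begins at 70698949, and the Atf3 and Fosl2 windows lie inside their gene models. The motifs were searched on both strands of the 250 bases of each member and of all 32851 mouse promoter windows of that length. No member window held the AP-1 site TGANTCA, which occurred in 6.75% of all windows. The Jun window held the related cyclic AMP response element (CRE) type TGACATCA 45 to 38 bases before the start, and 7.49% of all windows held a match to TGACNTCA. The CRE core TGACG, which is also part of any TGACNTCA match with G at the free base, lay 129 to 125 and 66 to 62 bases before the start of Fos. It also lay 60 to 56 bases before Fosb, 106 to 102 before Junb and, on the opposite strand as CGTCA, 7 to 3 before Atf3, against 17.8% of all windows. The EGR site GCGNGGGCG, found in 4.7% of all windows, occurred 79 to 71 bases before Fosl2 and 50 to 42 before Fosb. An NF-kB site (capitals in Fos 214 to 205 bases before the start and in Fosl2 182 to 172) was in the windows of Fos, Fosb and Fosl2 and in 7.25% of all windows. Fos also held the TATA box TATAAA 33 to 28 bases before the start, as did 12.4% of windows, and no member window held a CArG box, the site of serum response factor, found in 1.47%. Sites further than 250 bases before the start were not searched, so this does not show that the Fos promoter lacks a CArG box. The motifs listed are matches of letters in a short window and say nothing of binding.

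Against Control, the FOS family moved apart: Fos fell while Fosl1 and Fosl2 rose, in both plasmid groups. Of the 9 members, 6 passed the test (adjusted p under 0.05) in WT, 3 higher and 3 lower, where 56.8% of all genes tested passed, 28.7% higher and 28.1% lower. In SIRT5F101L 6 of 9 passed, again 3 higher and 3 lower, where 60.7% of all genes passed, 30% higher and 30.7% lower. The members' share was thus near that of all genes, and so was the size of their changes. Their median absolute log2 fold change was 0.47 in WT against 0.37 over all genes, and 0.41 in SIRT5F101L against 0.40. The same count, 6 of 9, showed no overlap between the plasmid group and Control, where 53.5% of all genes did so in WT and 51.3% in SIRT5F101L. Both comparisons use the same 4 Control libraries, so they are not independent of each other. The labels do not say that libraries of a group came from separate cultures or animals, so the p-values measure the spread between these libraries, which may be technical.

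**Figure D1:**
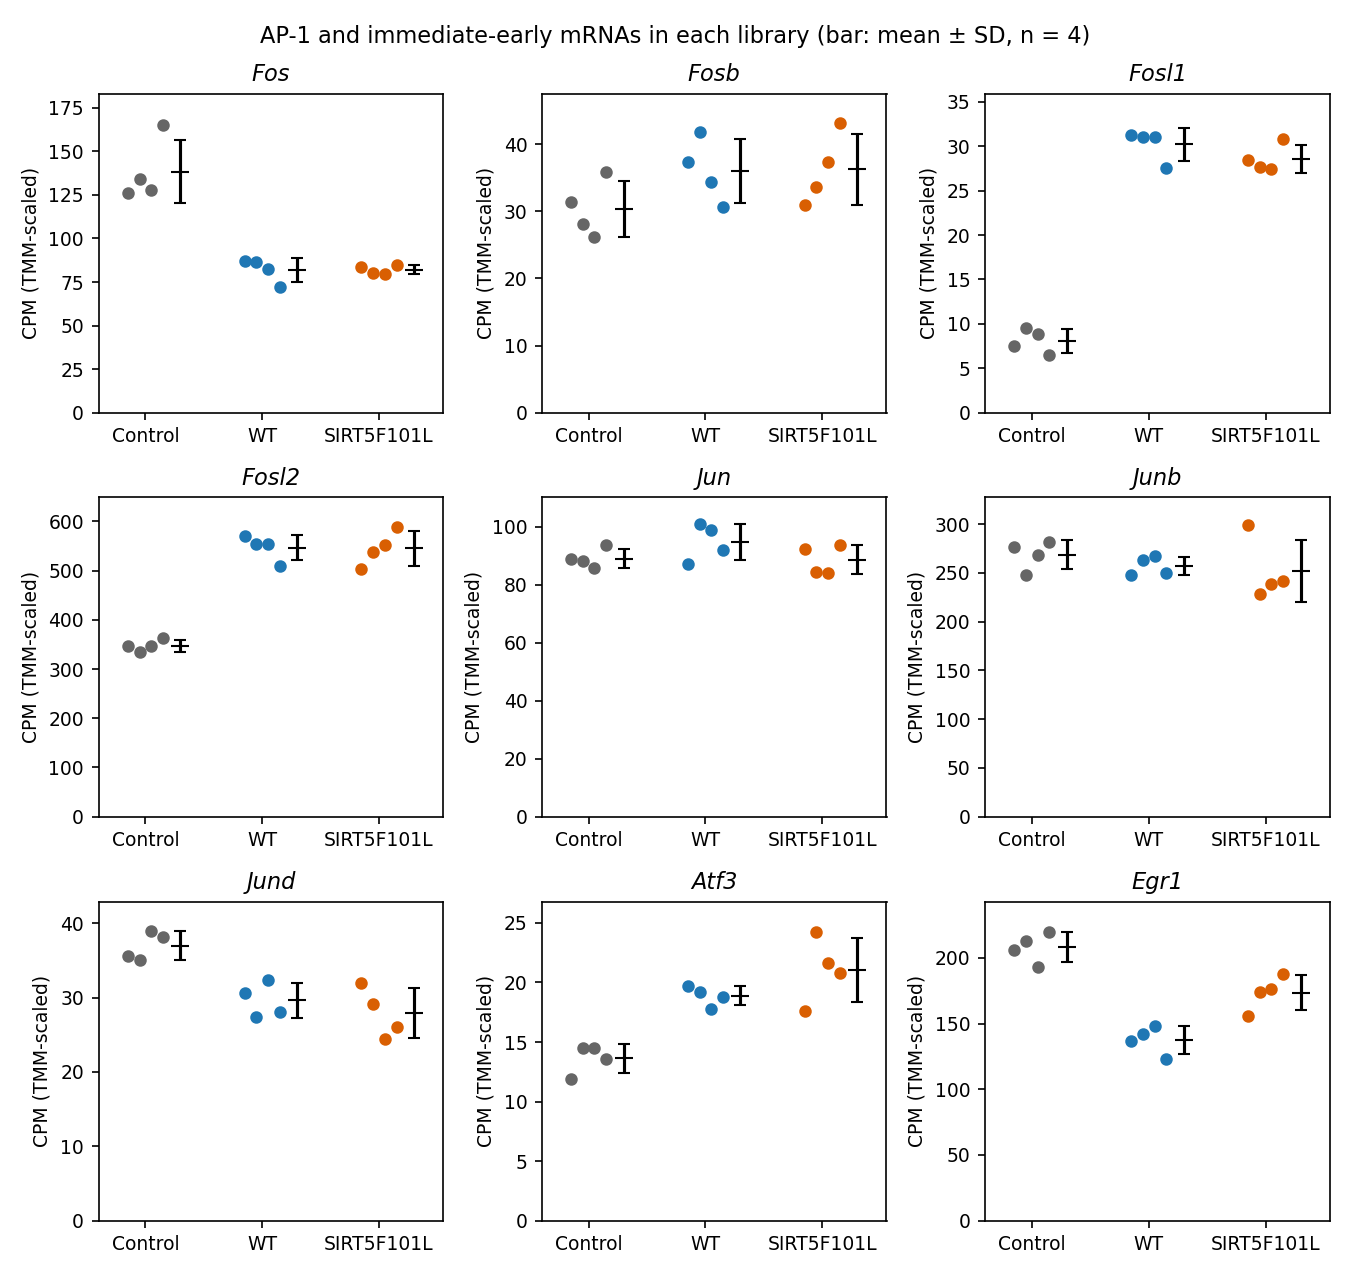
CPM (scaled by TMM, y axis from 0) of each member in each of the 12 libraries by group (x axis), points in replicate order, with mean ± SD (n = 4) beside them. Fosl1 lies at 6.55 to 9.57 CPM in Control and at 27.4 to 31.3 CPM in the plasmid groups, Fos lies lower in both plasmid groups, and Egr1 lies in 3 separate ranges.

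Fos, a FOS partner with a strong activation domain, measured 126, 134, 128 and 165 CPM in the Control libraries, 87, 86.3, 82.5 and 72.2 CPM in WT, and 83.6, 80.2, 79.4 and 84.9 CPM in SIRT5F101L. The lowest Control library lay above every plasmid library, and the plasmid groups overlapped. The means were 138 ± 18.4, 82 ± 6.84 and 82 ± 2.65 CPM (SD, n = 4). Fos was 1.69-fold lower than in Control in both plasmid groups, a log2 difference of -0.75 ± 0.08 (SE) in each, with edgeR adjusted p = 1.2e-07 for WT and 1.12e-07 for SIRT5F101L. Between the plasmid groups the difference was 0.00, with a 95% confidence interval of -0.17 to 0.17 (adjusted p = 0.997).

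Fosl1, which encodes FRA1, showed the largest change of the 9. Its level was 7.49, 9.57, 8.83 and 6.55 CPM in Control, 31.3, 31, 31 and 27.5 CPM in WT, and 28.4, 27.7, 27.4 and 30.8 CPM in SIRT5F101L. All 8 plasmid libraries were above the highest Control library. Fosl1 rose 3.71-fold (95% confidence interval 3.19 to 4.31) in WT, adjusted p = 3.63e-12, and 3.51-fold (3.02 to 4.08) in SIRT5F101L, adjusted p = 6.91e-12. The difference between the plasmid groups was -0.08 on the log2 scale (-0.28 to 0.12, adjusted p = 0.742). In GENCODE M21, 57.2% of the Fosl1 exon sequence overlaps Ccdc85b on the opposite strand, and the strand setting of the counting is not given in the sources used here, so the reads of this pair cannot be told apart with certainty. Ccdc85b measured 66.4 to 76.6 CPM in Control, 57.7 to 62.5 CPM in WT and 46.4 to 71.7 CPM in SIRT5F101L.

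Fosl2, which encodes FRA2, also rose in both plasmid groups, with a smaller fold change than Fosl1. It measured 346, 334, 346 and 364 CPM in Control, 570, 554, 554 and 510 CPM in WT, and 503, 538, 552 and 588 CPM in SIRT5F101L. The plasmid groups overlapped each other and lay wholly above Control. Fosl2 rose 1.58-fold in WT (log2 0.66 ± 0.06 SE, adjusted p = 1.13e-08) and 1.57-fold in SIRT5F101L (0.65 ± 0.06, adjusted p = 1.2e-08). The interval of the difference between the plasmid groups was -0.13 to 0.12 (adjusted p = 0.983).

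Fosb, a FOS partner that also gives a truncated neuronal form, measured 31.4, 28.1, 26.2 and 35.8 CPM in Control, 37.4, 41.8, 34.4 and 30.6 CPM in WT, and 30.9, 33.6, 37.4 and 43.2 CPM in SIRT5F101L. The 3 groups overlapped. Its log2 difference from Control was 0.25 (95% confidence interval 0.01 to 0.49, adjusted p = 0.0744) in WT and 0.26 (0.02 to 0.50, adjusted p = 0.0582) in SIRT5F101L, both short of the threshold. The call depended on single libraries and on the processing. Without Control replicate 4 the adjusted p was 0.0248 in WT and 0.0194 in SIRT5F101L, without WT replicate 4 it was 0.0291 and 0.05, and without SIRT5F101L replicate 1 it was 0.0275 and 0.00598. With all libraries kept, it was 0.0212 and 0.0156 with no filter beyond 1 count, and 0.0176 and 0.0467 with the 8 libraries compared. RLE scaling gave 0.0483 in SIRT5F101L. Over all 19 alternatives it ran from 0.0176 to 0.245 in WT and from 0.00598 to 0.232 in SIRT5F101L. The plasmid groups differed by 0.01 (-0.23 to 0.25, adjusted p = 0.978).

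Because the FOS genes moved in opposite directions, the make-up of the family differed between the groups. Levels were set per kilobase of the longest transcript, and each gene's percentage of the summed FOS family was computed in each library, as a description without a test. Fos made up 47.8%, 49.9%, 48.5% and 53.3% of the FOS family in the Control libraries, 26.6%, 26.7%, 26.2% and 25.3% in WT, and 28.3%, 26.4%, 25.7% and 25.5% in SIRT5F101L. Fosl2 held 40.6% ± 2.11 in Control, 56.5% ± 1.03 in WT and 56.6% ± 1.14 in SIRT5F101L (SD, n = 4), so on this scale the larger share went from Fos to Fosl2. In shares of CPM, without lengths, Fosl2 was the larger in every group, with 66.3%, 78.7% and 78.8% against 26.3%, 11.8% and 11.9% for Fos. Fosl1 went from 3.36% ± 0.733 to 10.9% ± 0.135 and 10.4% ± 0.348, and Fosb stayed between 5.54% and 7.22% in every library. With the union of exons as the length, Fos held 56.6%, 31.1% and 31.4%, and Fosl2 34.8%, 50.5% and 50.7%. The summed FOS level was 131 ± 10.7 CPM per kilobase in Control, 148 ± 9.09 in WT and 147 ± 7.76 in SIRT5F101L, ranges that overlapped. The ratio of Fos to Fosl1, both per kilobase, was 12.3 to 22.3 in Control, 2.32 to 2.47 in WT and 2.44 to 2.61 in SIRT5F101L. The overlap of Fosl1 with Ccdc85b leaves the height of its share and of this ratio uncertain.

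**Figure D2:**
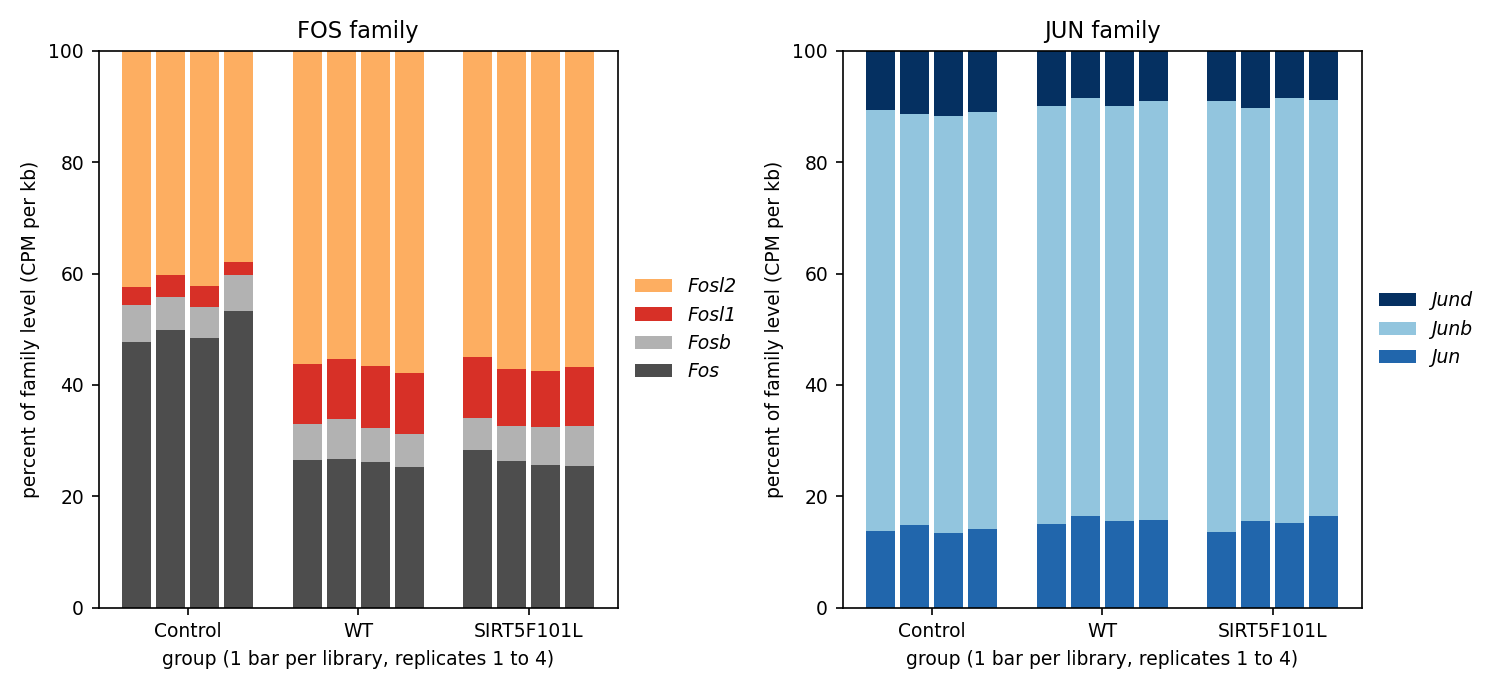
Stacked bars (1 per library, grouped on the x axis) give the percent of the summed CPM per kilobase (y axis) held by each FOS gene, left, and each JUN gene, right. Fos falls from 47.8% to 53.3% of the FOS family in Control to 25.3% to 28.3% in the plasmid groups, while Junb holds 73.8% to 77.4% of the JUN family in every library.

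Of the JUN genes, Jund passed the test in both plasmid groups, and Jun and Junb in neither. Jun, the partner that gives AP-1 its core activity, measured 88.7, 88.1, 85.6 and 93.6 CPM in Control, 87.1, 101, 98.7 and 92 CPM in WT, and 92.4, 84.4, 84.1 and 93.6 CPM in SIRT5F101L. The 3 groups overlapped. Its difference from Control was 0.09 on the log2 scale (-0.04 to 0.22, adjusted p = 0.244) in WT and -0.01 (-0.14 to 0.13, adjusted p = 0.934) in SIRT5F101L. The sign of the second value changed with the scaling and with single libraries, between -0.05 and 0.02 over the alternatives. Junos, an antisense transcript that overlaps 7.28% of the Jun exons, measured 6.63 ± 0.89, 11 ± 0.915 and 12.5 ± 1.69 CPM in the 3 groups. It rose by 0.73 ± 0.13 (log2, SE, adjusted p = 5.39e-05) in WT and by 0.91 ± 0.13 (adjusted p = 3.46e-06) in SIRT5F101L, with the same uncertainty over strand.

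Junb, a weaker activator that can oppose JUN, was the most abundant member per kilobase in every group. It measured 276, 248, 268 and 282 CPM in Control, 248, 263, 267 and 250 CPM in WT, and 299, 228, 239 and 242 CPM in SIRT5F101L. Replicate 1 was the highest of all 12 libraries, while the other SIRT5F101L libraries lay below the Control range. The difference from Control was -0.06 (-0.22 to 0.09, adjusted p = 0.478) in WT and -0.09 (-0.25 to 0.06, adjusted p = 0.289) in SIRT5F101L. Without SIRT5F101L replicate 1 the second difference was -0.18 (adjusted p = 0.00589), past the threshold, so whether Junb was lower in SIRT5F101L rested on this library. Prdx2 overlaps 7.52% of the Junb exons and measured 234 to 259 CPM in Control, 194 to 257 CPM in WT and 185 to 252 CPM in SIRT5F101L.

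Jund, the JUN gene that is usually the least inducible, fell modestly in both plasmid groups. Its level was 35.6, 35, 39 and 38.2 CPM in Control, 30.6, 27.4, 32.4 and 28 CPM in WT, and 32, 29.1, 24.4 and 26.1 CPM in SIRT5F101L. Every Control library was above every plasmid library, and the plasmid groups overlapped. Jund was 1.25-fold lower in WT (log2 -0.32 ± 0.09 SE, adjusted p = 0.00407) and 1.33-fold lower in SIRT5F101L (-0.41 ± 0.09, adjusted p = 0.00046). The predicted gene Gm11175 overlaps 52.6% of the Jund exon sequence on the opposite strand and had no count in any library. With the strand setting unknown, reads of the shared stretch may be missing from both genes. The level of Jund and the JUN shares that follow carry this uncertainty. Within the JUN family, Junb held 74.7%, 74.9% and 75.7% of the summed CPM per kilobase in Control, WT and SIRT5F101L, Jun 14.1%, 15.7% and 15.2%, and Jund 11.2%, 9.38% and 9.12%. The summed JUN level was 198 ± 9.47, 189 ± 7.35 and 184 ± 20.1 CPM per kilobase (SD, n = 4), with overlapping ranges.

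Atf3, a stress-induced JUN partner, measured 11.9, 14.5, 14.5 and 13.6 CPM in Control, 19.7, 19.2, 17.8 and 18.8 CPM in WT, and 17.6, 24.2, 21.6 and 20.8 CPM in SIRT5F101L. Both plasmid groups lay above the Control range. Atf3 rose by 0.47 ± 0.10 on the log2 scale (SE, adjusted p = 0.000578) in WT and by 0.62 ± 0.10 (adjusted p = 2.26e-05) in SIRT5F101L. The plasmid groups differed by 0.16 (-0.05 to 0.36, adjusted p = 0.516).

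Egr1, a zinc finger factor of the same immediate-early class that does not belong to AP-1, differed between the plasmid groups more than any other member. It measured 206, 213, 193 and 220 CPM in Control, 137, 142, 148 and 123 CPM in WT, and 156, 174, 176 and 188 CPM in SIRT5F101L. The 3 groups did not overlap, with SIRT5F101L between WT and Control. Egr1 was 1.51-fold lower in WT (log2 -0.60 ± 0.07 SE, adjusted p = 3.97e-07) and 1.2-fold lower in SIRT5F101L (-0.26 ± 0.07, adjusted p = 0.0029). Between SIRT5F101L and WT the difference was 0.33 (0.19 to 0.48), a 1.26-fold higher level in SIRT5F101L, with an unadjusted p of 0.000119 and an adjusted p of 0.106. This missed the threshold over all genes. It passed in 3 of 19 alternatives, namely DESeq2 (adjusted p = 0.00342), no filter beyond 1 count (0.000797) and leaving out SIRT5F101L replicate 1 (log2 0.38, adjusted p = 9.22e-05). The adjusted p ran from 9.22e-05 to 0.397, and the log2 difference from 0.28 to 0.38, over the alternatives. The related Egr2 and Egr3, picked out here after their values were seen, measured 3.17 ± 0.721 and 2.39 ± 0.184 CPM in Control, 1.94 ± 0.388 and 1.27 ± 0.36 CPM in WT, and 2.65 ± 0.358 and 1.49 ± 0.277 CPM in SIRT5F101L. In WT both were lower than in Control (Egr2 -0.69, adjusted p = 0.0114; Egr3 -0.91, adjusted p = 0.00404). In SIRT5F101L Egr2 did not pass the test (-0.26, adjusted p = 0.303, and -0.39 to -0.16 with each library left out). Egr3 passed at -0.67 (adjusted p = 0.0221), but not without Control replicate 3 (0.0524), SIRT5F101L replicate 1 (0.0548) or SIRT5F101L replicate 4 (0.0651). Between SIRT5F101L and WT neither passed, with 0.43 for Egr2 (edgeR adjusted p = 0.444) and 0.24 for Egr3 (0.722).

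Between the 2 plasmid groups, 0 of the 9 members passed the edgeR test, where 0.0421% of all genes (6 genes) passed. At an unadjusted p under 0.05, 1701 genes (11.9%) were found, and Egr1 was the only member among them. Egr1 was also the only member whose groups did not overlap, which held for 4.02% of all genes. DESeq2 called 43 genes, Egr1 the only member. The median absolute log2 difference was 0.08 over the members and 0.11 over all genes tested.

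**Figure D3:**
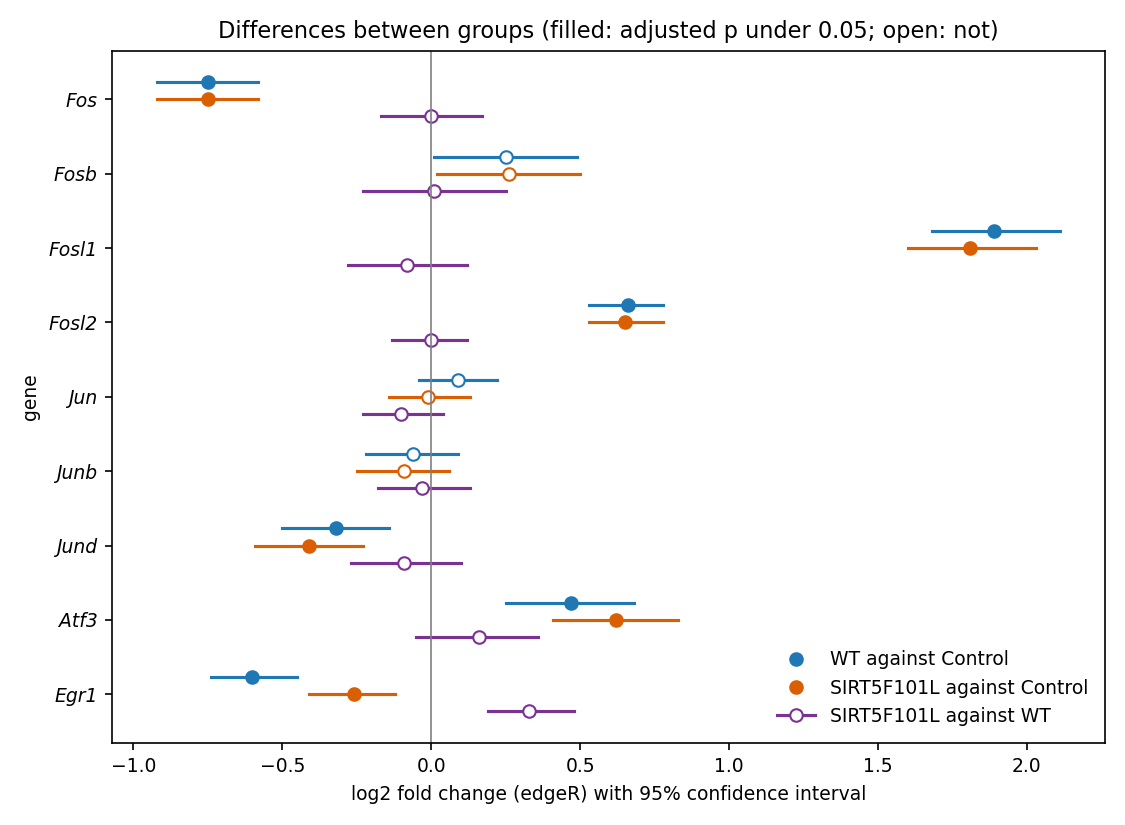
Log2 fold change with its 95% confidence interval (x axis) for each member (y axis) in the 3 comparisons, filled where the adjusted p was under 0.05. Fosl1, Fosl2 and Atf3 lie above 0 and Fos, Jund and Egr1 below 0 against Control, and against WT the Egr1 interval of 0.19 to 0.48 is the one that does not include 0.

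Set side by side per kilobase of the longest transcript, the order of the members differed between the groups. In Control it was Junb at 148 CPM per kilobase, Fos at 65.6, Fosl2 at 53.1, Egr1 at 46.4, Jun at 27.9, Jund at 22.2, Fosb at 8.03, Atf3 at 6.87 and Fosl1 at 4.35. Only the neighbours Fosb and Atf3 overlapped in range. In WT the order was Junb at 142, Fosl2 at 83.7, Fos at 38.9, Egr1 at 30.7, Jun at 29.7, Jund at 17.7, Fosl1 at 16.2, Fosb at 9.53 and Atf3 at 9.51. Here Egr1 and Jun overlapped, as did Jund and Fosl1, and Fosb and Atf3. In SIRT5F101L it was Junb at 139, Fosl2 at 83.4, Fos at 38.9, Egr1 at 38.7, Jun at 27.8, Jund at 16.7, Fosl1 at 15.3, Atf3 at 10.6 and Fosb at 9.59, with overlap between Fos and Egr1, Jund and Fosl1, and Atf3 and Fosb. With exon unions as the length, Egr1 stood above Fosl2 in Control and above Fos in SIRT5F101L, and Atf3 stood above Fosb in Control and in WT. Because 57.2% of the Fosl1 and 52.6% of the Jund exon sequence overlaps another gene, their places also depend on how shared reads were counted.

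Genes whose pattern over the 12 libraries lay closest to a member were found among 9779 genes by the distance between log2 CPM profiles, each centred on its own mean. Closest to Fos were Rara, a retinoic acid receptor, at a distance of 0.20 and Dnm1, a dynamin, at 0.27. Closest to Fosl1 were the growth factor Fgf10 (0.46) and the EGF receptor substrate Eps8 (0.48), and closest to Fosl2 were Mprip (0.14) and Mapk14, the p38 alpha kinase (0.15). For Egr1 they were Smg6 (0.33) and Zfp395 (0.37), and for Atf3 Nin (0.22) and Naa15 (0.23). Jun had Tmem214 and Trmt1 at 0.16, Junb had St6galnac6 and Gpaa1 at 0.19, Jund had Cyth2 (0.27) and G6pc3 (0.28), and Fosb had Kmt2b (0.28) and Rai1 (0.29). These distances describe 12 libraries that fall into 3 groups.

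Other leucine zipper factors that can pair with AP-1 proteins moved in both directions. Of 25 listed, 22 were tested: 15 passed in WT, 6 higher and 9 lower, and 18 in SIRT5F101L, 8 higher and 10 lower. Over all genes tested 56.8% and 60.7% passed. The list's median log2 change was -0.16 and -0.13, against -0.01 and -0.02 over all genes tested. Crem, a cyclic AMP response factor that also gives a repressor, rose from 11.8 ± 0.947 CPM to 59.7 ± 3.78 CPM in WT and 61.1 ± 4.25 CPM in SIRT5F101L (log2 2.34 and 2.37). Maff, a small MAF protein, rose by 1.94 and 1.82, and Nfe2l2, which encodes the antioxidant regulator NRF2, by 0.88 and 1.02. Jdp2, a partner that represses AP-1, fell from 108 ± 3.07 CPM to 24.3 ± 1.11 CPM and 23.4 ± 1.75 CPM (-2.15 and -2.20). Atf5 changed by -2.22 and -2.41. The edgeR adjusted p of these 5 genes was at most 4.51e-11 in WT and 2.84e-11 in SIRT5F101L.

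Of 30 other immediate-early genes, 27 were tested. In WT 24 passed, 17 higher and 7 lower, and in SIRT5F101L 20 passed, 14 higher and 6 lower, where 56.8% and 60.7% of all genes passed. The median log2 changes were 0.38 and 0.17, against -0.01 and -0.02 over all genes. Nr4a2, an orphan nuclear receptor, rose from 19.1 ± 2.78 CPM to 189 ± 6.18 CPM in WT and 188 ± 12.9 CPM in SIRT5F101L (9.94-fold and 9.89-fold), and its relative Nr4a3 rose by 2.61 and 2.50 on the log2 scale. Nr4a1, the other receptor of this family and outside the naming rule, rose by 0.76 and 0.80 (edgeR adjusted p = 2.15e-07 and 1.04e-07). The survival gene Ier3 rose by 1.89 and 1.90. Gadd45b, a stress sensor, changed by -0.77 and -1.02, the antiproliferative Btg2 by -0.51 and -0.44, and the matricellular Ccn1 by -0.37 and -0.42. Fos and Egr1, which are not on this list, were lower as well, so the direction differed within the class in both comparisons. All 6 named genes passed the edgeR test, with adjusted p of at most 2.31e-05 in WT and 9.3e-06 in SIRT5F101L.

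Upstream, 37 MAP kinase pathway members and ternary complex factors were listed and 31 tested. In each comparison 23 passed, 18 higher and 5 lower, where 56.8% of all genes passed in WT and 60.7% in SIRT5F101L. The median log2 changes were 0.28 in WT and 0.31 in SIRT5F101L, against -0.01 and -0.02 over all genes. Mapk13, a p38 kinase, rose by 1.71 and 1.68, Map3k8, a kinase that acts downstream of inflammatory receptors, by 1.44 and 1.56, and Elk3, a ternary complex factor that can repress, by 1.07 and 1.07. Mapk3, which encodes ERK1, changed by -0.62 and -0.67, and Braf by -0.49 and -0.28 (-0.18 without SIRT5F101L replicate 1). These 5 genes had edgeR adjusted p of at most 8.72e-05 in WT and 0.00888 in SIRT5F101L. Rps6ka1 passed in SIRT5F101L (-0.53, adjusted p = 0.00522), with -0.32 in WT (adjusted p = 0.0788), which passed under upper-quartile scaling (0.0428), without Control replicate 3 (0.0268) and without WT replicate 1 (0.0453). The difference between those was -0.21 (adjusted p = 0.574). Mapk12 changed by -0.46 (adjusted p = 0.0203) and -0.45 (0.0228). It lost the call without Control replicate 2 (0.073 and 0.0795) or Control replicate 4 (0.062 and 0.0672), in WT also without WT replicates 2 (0.0755) or 3 (0.0678), and in SIRT5F101L also without SIRT5F101L replicate 2 (0.0655). Elk1, Araf and Rps6ka3 were listed at 0 in every library, as were all 3998 IDs on the X and Y chromosomes and the mitochondrial genome in GENCODE M21, so these genes could not be assessed.

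Of 23 feedback inhibitors of this signalling or of its factors, 20 were tested. In WT 16 passed, 13 higher and 3 lower, and in SIRT5F101L 17 passed, 13 higher and 4 lower, where 56.8% and 60.7% of all genes passed, and with medians of 0.52 and 0.56 against -0.01 and -0.02. Dusp4 and Dusp6, phosphatases that switch off ERK, rose by 2.44 and 2.44 and by 1.99 and 2.01, and Spry4, an inhibitor of receptor tyrosine kinase signalling, by 1.75 and 1.78. Dusp14 fell, with -0.76 and -0.84, and Cop1, a ubiquitin ligase for JUN, with -0.24 and -0.25 (edgeR adjusted p of at most 0.00225 over these 5 genes in both comparisons). Nab2, a corepressor of EGR1, had 68.9 ± 3.02 CPM in Control, 64.8 ± 5.08 CPM in WT (-0.09, adjusted p = 0.456) and 54.1 ± 10.4 CPM in SIRT5F101L (-0.35, adjusted p = 0.0052). Its difference between the plasmid groups was -0.26 (adjusted p = 0.371).

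A further list held 30 genes taken as targets of AP-1 or EGR1, of which 25 were tested. In WT 24 passed, 21 higher and 3 lower, and in SIRT5F101L 23 passed, 20 higher and 3 lower, where 56.8% and 60.7% of all genes passed. The median log2 change was 1.82 and 1.89, against -0.01 and -0.02 over all genes. The list was drawn up with earlier results of these data known, so its direction is not independent evidence. Control of these genes by AP-1 or EGR1 in these cells was not tested. Mmp3, which encodes stromelysin, rose from 16.3 ± 1.55 CPM to 1533 ± 146 CPM in WT and 1880 ± 163 CPM in SIRT5F101L. Ptgs2, the inducible cyclooxygenase, rose from 30.4 ± 2.5 CPM to 1597 ± 73.5 and 1703 ± 151 CPM, and the cytokine Il6 from 1.66 ± 0.335 CPM to 75.5 ± 4.33 and 94.1 ± 3.99 CPM. Nos2, the inducible nitric oxide synthase, rose from 0, 1, 4 and 13 counts in the Control libraries to 281 to 353 counts in WT and 406 to 778 in SIRT5F101L. The cartilage collagen Col2a1, a gene that EGR1 can repress, changed by -2.01 and -2.36, the membrane protease Mmp14 fell from 1165 ± 83 CPM to 617 ± 19.7 and 584 ± 42 CPM, and the filament gene Vim changed by -0.82 and -0.80. These 7 genes had edgeR adjusted p of at most 6.27e-13 for those that rose and 3.11e-10 for those that fell. Timp1, Timp3 and Ccl2 were listed at 0 in every library, as were Csrnp1 and Fbxw7 of the other lists. Timp3, Ccl2, Csrnp1, Fbxw7 and Itgam are not on the X chromosome, and their listed 0 is not read as absence of expression, so they could not be assessed either.

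**Figure D4:**
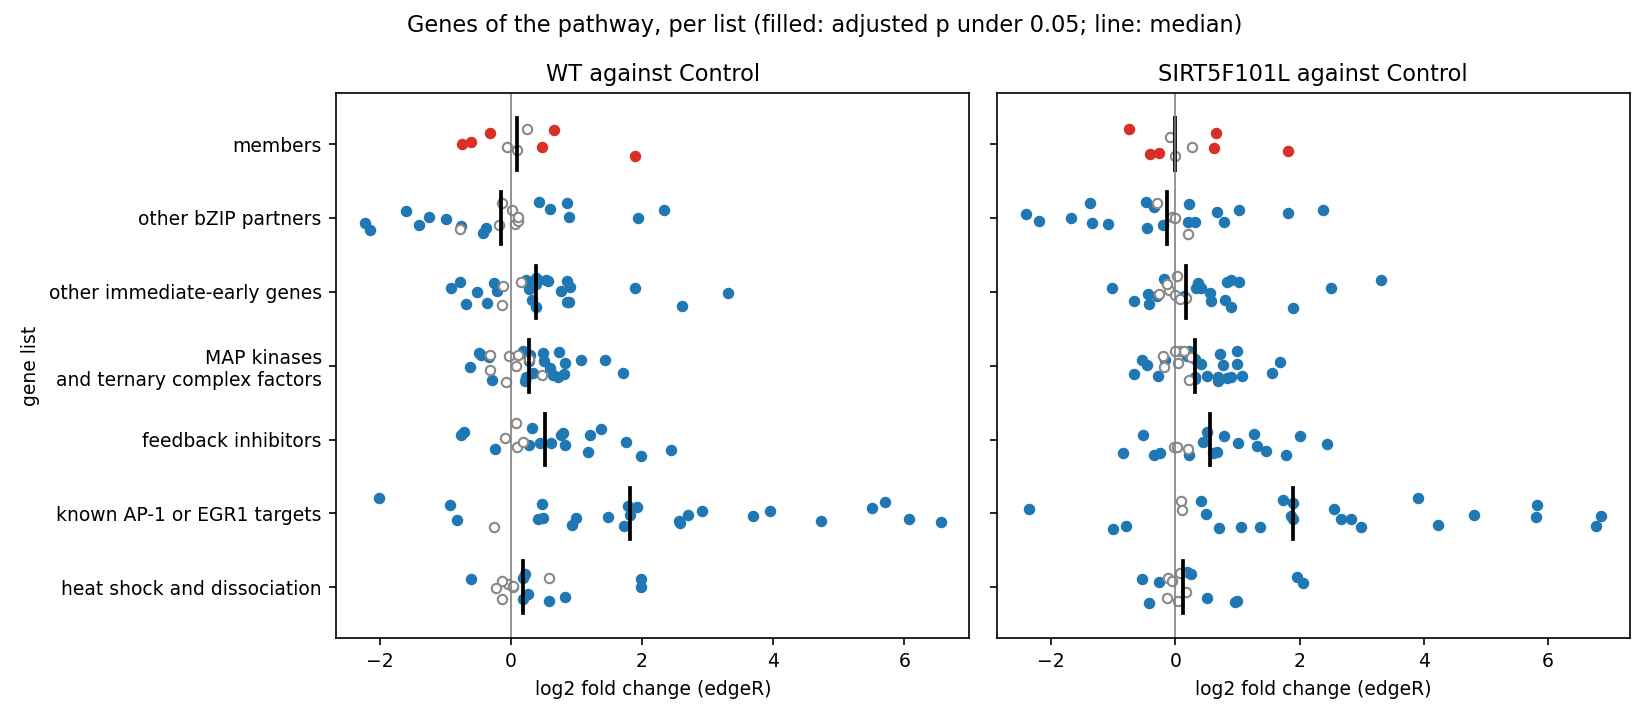
Each point is the log2 fold change (x axis) of a tested gene by list (y axis), WT against Control at left and SIRT5F101L against Control at right, filled where the adjusted p was under 0.05, with a line at the median. Genes listed as targets have medians of 1.82 and 1.89, and the 9 members have medians of 0.09 and -0.01.

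Heat shock and chaperone genes, which respond to handling and other stress, were read as a check beside the immediate-early genes. Of 16, all tested, 9 passed in WT, 8 higher and 1 lower, and 10 in SIRT5F101L, 7 higher and 3 lower, shares near the 56.8% and 60.7% of all genes. The list's median log2 change was 0.19 and 0.12. Their summed level was 6087 to 6465 CPM in Control, 7610 to 8334 CPM in WT and 7626 to 8228 CPM in SIRT5F101L, and its part in the changes of the members was not tested. Hspa1b rose by 1.99 and 1.95, Hsph1 by 1.98 and 2.05, and Hsp90aa1 went from 504 ± 21.2 CPM to 889 ± 63.8 and 1007 ± 58.8 CPM, while Dnajb4 changed by -0.61 and -0.53 (edgeR adjusted p of at most 5.49e-08 in WT and 3.51e-07 in SIRT5F101L). Hspe1 and Hspb1 were lower in SIRT5F101L (-0.42, adjusted p = 0.00354, and -0.27, adjusted p = 0.00717). In WT they had -0.22 (adjusted p = 0.11) and -0.14 (0.146), which passed without SIRT5F101L replicate 1 (0.00459 and 0.0476) and under upper-quartile scaling (0.0463 and 0.0452). Hspe1 also passed with no filter beyond 1 count (0.0097) and with the 8 libraries compared (0.0059). Between SIRT5F101L and WT, Hspe1 differed by -0.20 (edgeR adjusted p = 0.48) and Hspb1 by -0.13 (0.517).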

How the data were processed

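The authors deposited 1 table per library, 12 in all, of raw counts (whole numbers) by Ensembl mouse gene ID. The poly(A) RNA was isolated on beads and read from both ends, per the labels' protocols. The submitters' processing notes name FastQC 0.11.9, HISAT2 2.2.1, HTSeq 2.0.2 and DESeq2 1.38.3 and the build GRCm39, with no role or order. The annotation and the strand setting are not given in the sources used here. Symbols came from a table of Ensembl names (52029 of 57010 IDs). Lengths and overlaps came from GENCODE M21, and promoters from RefSeq (both GRCm38), so no gene coordinates are given in the build of the files.

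Counts were tested with edgeR 4.0.16 in R 4.3.3: TMM scaling, its default filter by group, and 1 quasi-likelihood fit of all 12 libraries (9 residual degrees of freedom). The tests were 2-sided, and a gene was called at a Benjamini-Hochberg adjusted p below 0.05 over all 14253 tested. The SE is the log2 fold change divided by the square root of F, and its interval covers 95%. The biological coefficient of variation was 9.18%. The 19 alternatives were scaling by RLE or by the upper quartile, a robust fit, a filter of only 1 count or of a mean of 1 CPM, a fit of the 8 libraries compared, DESeq2 1.42.0, and leaving out each library. The procedure was tested on simulated counts. Counting error alone limits genes near the floor of 3 counts, such as Sirt5 in WT replicate 4. Reads carried no molecular identifiers.

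The members and the gene lists were chosen with earlier results of these data known. Named beside the members and Sirt5 were, per list and comparison with Control, up to 3 called genes with the highest and up to 3 with the lowest log2 fold change at a mean of at least 5 CPM, and the genes overlapping a member. A gene that this rule names among the leucine zipper factors is not reported here. For likeness, the 2 genes at the smallest Euclidean distance were named for each member. Replicates are numbered in accession order and pair nothing. IDs without a symbol, holding 0.377% to 0.821% of counts, stayed in the tests.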

Additional observations from a re-analysis of the deposited data

Results flagged for a closer look

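The level of Fosl1 in WT replicate 4 was 27.5 CPM, while the other WT libraries lay at 31 to 31.3 CPM. The gap was 0.907 of the group's range, above Dixon's 95% critical value for 4 libraries. Among the 27 sets of 4 libraries screened (9 members in 3 groups), 1 was found in this way, and chance gives about 1.35. Fosl1 in this library was still above the highest Control library.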

How the results depend on the processing

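Of the 18 member results against Control, 14 kept their direction and their side of the threshold under every one of the 19 alternatives. The exceptions were Fosb in both comparisons and Junb and Jun in SIRT5F101L. Of 76 results for the other named list genes against Control, 71 did so, and none changed sign. The count of genes called was 7549 to 8747 in WT and 8030 to 9179 in SIRT5F101L with each library left out in turn. Between the plasmid groups it depended on the processing: 6 genes were called, but 354 with no filter beyond 1 count, 43 with DESeq2, 2 with a robust fit, 2 with the 8 libraries compared, and 0 to 2212 with each library left out, 2212 without SIRT5F101L replicate 1, 3 without Control replicate 2 and 0 without any other single library. Values near 0 changed sign. For Jun, SIRT5F101L against Control, the log2 difference was 0.00 with RLE scaling, 0.01 with 8 libraries, 0.00 with DESeq2 and -0.03 to 0.02 with each library left out. Sirt5 in that comparison had -0.01 with upper-quartile scaling and -0.31 to 0.18. Between the plasmid groups, Fosl2 had 0.00 with RLE and with upper-quartile scaling and -0.04 to 0.03, Fos had 0.00 with no filter and -0.06 to 0.03, Fosb had -0.08 to 0.09, and Junb had -0.12 to 0.02. The cause was not tested. For Sirt5 a mean of at least 1 CPM left no value. No paired analysis was possible because the labels give no replicate numbers that groups share.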
